A study of Bos taurus with 18 samples.

Results

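Het is the mixed population of this series, a culture of bovine bone marrow mesenchymal stem cells (MSCs) in which no single cell was picked as founder, and it is 1 of the 18 libraries. It was chosen by its clonality label, and it was compared with the 17 libraries labelled as clones, A to Q, each a population grown from 1 cell. All 18 populations came from the same bovine donor, were grown on culture plastic in DMEM with serum and antibiotics, and received no differentiation treatment before their polyadenylated RNA was sequenced. The series asked whether RNA levels in undifferentiated clones foretell how much cartilage-like matrix they later make, and Het was sequenced beside them. The methods give passage 1 for the clones, and the passage of Het is not given in the sources used here. Het and each clone were sequenced once.

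Marrow plated on plastic holds several kinds of cell. Stromal cells attach, spread and divide, and their colonies are the source of MSCs. Macrophages, which take up debris through scavenger receptors and carry the leukocyte surface protein CD45, attach to plastic as well, and osteoclasts arise from the same lineage. A colony grown from 1 founder holds the descendants of that cell, whereas an unsorted culture keeps whatever attached and survived.

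Depth did not set Het apart. It had 16092501 reads on genes, inside the range of 11484812 to 18458157 over the clones (median 14193790). It had a read in 12922 genes, slightly above the 12380 to 12855 of the clones, and 27.2% of its reads fell on its 10 most abundant genes, within the 13.4% to 28.9% of the clones. The smallest level that 3 reads amount to was 0.186 CPM (counts scaled to the reads on genes of each library) in Het and 0.163 to 0.261 CPM in the clones, a limit that covers counting error only. Some genes used by every cell were hardly counted in this annotation, with PGK1 at 0 reads in every library and GAPDH at 7 reads in Het and 1 to 12 in the clones, so that 0 reads of a marker cannot be read as its absence. The stromal surface genes THY1, CD44 and PDGFRB were within the range of the clones in Het. THY1 had 7688 reads in Het against 2820 to 9929 (median 4579) in the clones, CD44 had 3974 against 2860 to 8095, and PDGFRB had 8110 against 2607 to 9763. NT5E, which encodes CD73, and ITGB1, the integrin beta chain, were below every clone by CPM, at 3548 reads against 3212 to 10884 and 23228 against 24686 to 45356. Of 22 marrow stromal surface genes, 3 were above every clone and 3 below, beside 7.04% and 9.07% of all genes with a read. Of these 22, 0 were called, and their sum was 14150 CPM in Het against 9526 to 13080 CPM. LRP1 alone held 156728 of the list's 227689 reads in Het, so the sum does not show that its other genes were high. Genes named as within the range, at 0 reads or not called were chosen after values were seen, unless the naming rule also gave them.

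Most genes that the test called were ones that Het held and of which the median clone had few or 0 reads. Of 11878 genes tested, edgeR's quasi-likelihood test with Benjamini-Hochberg adjustment called 145 at an adjusted p under 0.05, of which 144 (1.21%) were higher and 1 (0.00842%), SH2D5, was lower in Het. All 144 lay above every clone. In 47 of them the median clone had 0 reads, in 88 it had 1 to 99 reads, and in 9 it had at least 100. Het is 1 library, so its own spread was not measured and was taken to equal that between clones, a coefficient of variation of 36.0% with 16 residual degrees of freedom. An exact permutation of the label of 1 library among 18 cannot give a p below 0.0556. The filter on low counts let 115 genes in through Het alone, and 85 of the 144 were among these. A fit limited to genes expressed in at least 1 clone, added after seeing the data, called 45 genes (44 higher and 1 lower), and DESeq2 called 89 (78 higher and 11 lower), 77 of them shared with edgeR.

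**Figure D1:**
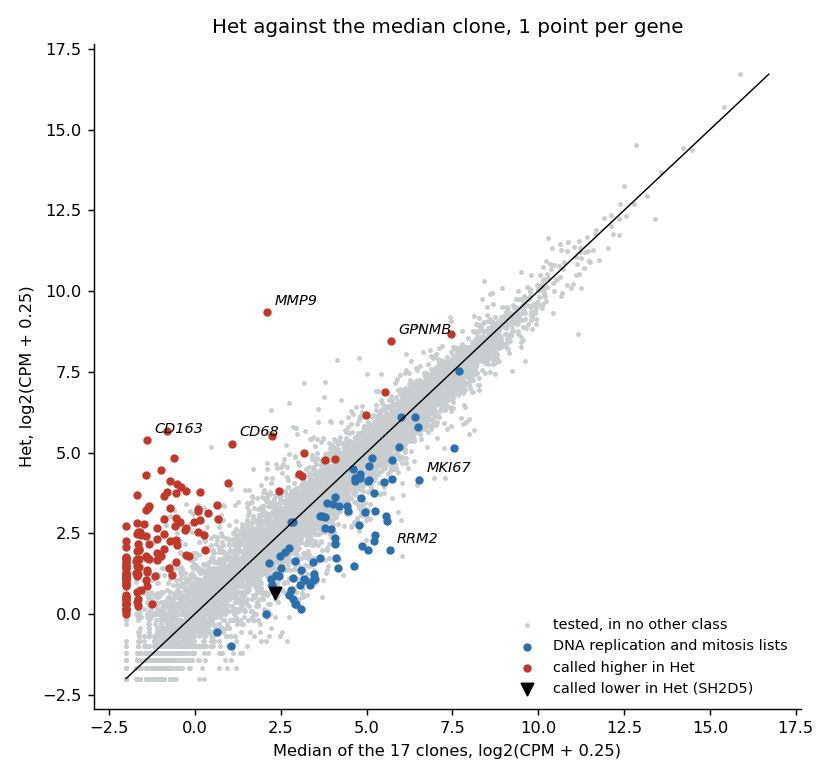
Level of each tested gene in Het (vertical axis) against the median of the 17 clones (horizontal axis), both as log2(CPM + 0.25), with the line of equality. The 144 genes called higher in Het (red) sit mostly at the left, where the median clone had few or 0 reads, SH2D5 (black triangle) was called lower, and the DNA replication and mitosis genes (blue) lie below the line without being called.

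The genes that mark macrophages were the clearest group on the high side. Of 27 macrophage identity genes found in the annotation, 23 were counted in at least 1 library, and 18 of these were above every clone in Het and 0 below every clone, where 7.04% of all genes with a read lay above and 9.07% below. Of the 17 that were tested, 12 were called higher, 7 of the 17 having passed the filter only through Het. Their summed level was 237 CPM in Het against 16.4 CPM (clone F) to 41.0 CPM (clone C). In a bulk culture, more cells of a type and more RNA per cell of that type cannot be told apart.

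The scavenger receptors led this group. CD163, which takes up haemoglobin bound to haptoglobin, had 667 reads in Het against 0 to 12 (median 2) in the clones, with 0 reads in 4 of them (log2 fold change 7.44 ± 0.72 SE, edgeR quasi-likelihood adjusted p = 5.79e-06). MSR1, the class A scavenger receptor, had 317 reads against 0 to 11 (median 2), a log2 difference of 6.91 ± 0.63 (adjusted p = 3.67e-06, same test). CD68, a glycoprotein of the lysosome membrane, had 619 reads against 16 to 44 (median 27), so that each clone carried a low level of it and Het was 12.04-fold above the highest (log2 4.43 ± 0.30, edgeR adjusted p = 6.97e-08). Het was above all clones in each of these genes, and clone K was the highest clone in all 3.

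Receptors for growth factors, chemokines and bacterial products of the macrophage lineage were counted in Het in the same way. CCR1, a receptor for CCL3 and CCL5, had 203 reads against 0 to 5 (median 1) in the clones, with 0 reads in 7 of them (log2 6.94 ± 0.71, edgeR adjusted p = 7.71e-06), although only Het carried it past the filter. CSF1R, the receptor of macrophage colony-stimulating factor, had 241 reads against 2 to 22 (median 8). CD14, the lipopolysaccharide co-receptor, had 218 reads against 0 to 11 (median 4). Both were called, with log2 differences of 4.70 ± 0.51 (adjusted p = 1.26e-05) and 5.49 ± 0.65 (adjusted p = 2.63e-05) by edgeR. SPI1, the transcription factor PU.1 of the myeloid lineage, had 106 reads against 0 to 7 (log2 5.38, adjusted p = 1.94e-05, edgeR), also past the filter only through Het, and the mannose receptor MRC1 had 216 against 2 to 48 (log2 3.82, adjusted p = 0.00463, edgeR). By DESeq2 the adjusted p of MRC1 was 0.0523.

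Other genes of the lineage had few reads, were not called or lay inside the range of the clones. VSIG4, CD86, CLEC4A and TLR8 were called at 46, 31, 31 and 14 reads in Het against at most 5, 4, 5 and 2 reads in a clone, all 4 passing the filter only through Het and none of them called by DESeq2 (adjusted p from 0.273 to 0.561). EMR1, the F4/80 antigen, had 18 reads in Het and 0 in every clone and was not called (adjusted p = 0.309, edgeR). AIF1 had 16 reads against 0 to 11. The pattern receptors TLR2, with 88 reads against 17 to 153, and TLR4, with 243 against 39 to 263, were inside the range of the clones. The myeloid genes ITGAM, CYBB and MARCO were at 0 reads in all 18 libraries.

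**Figure D2:**
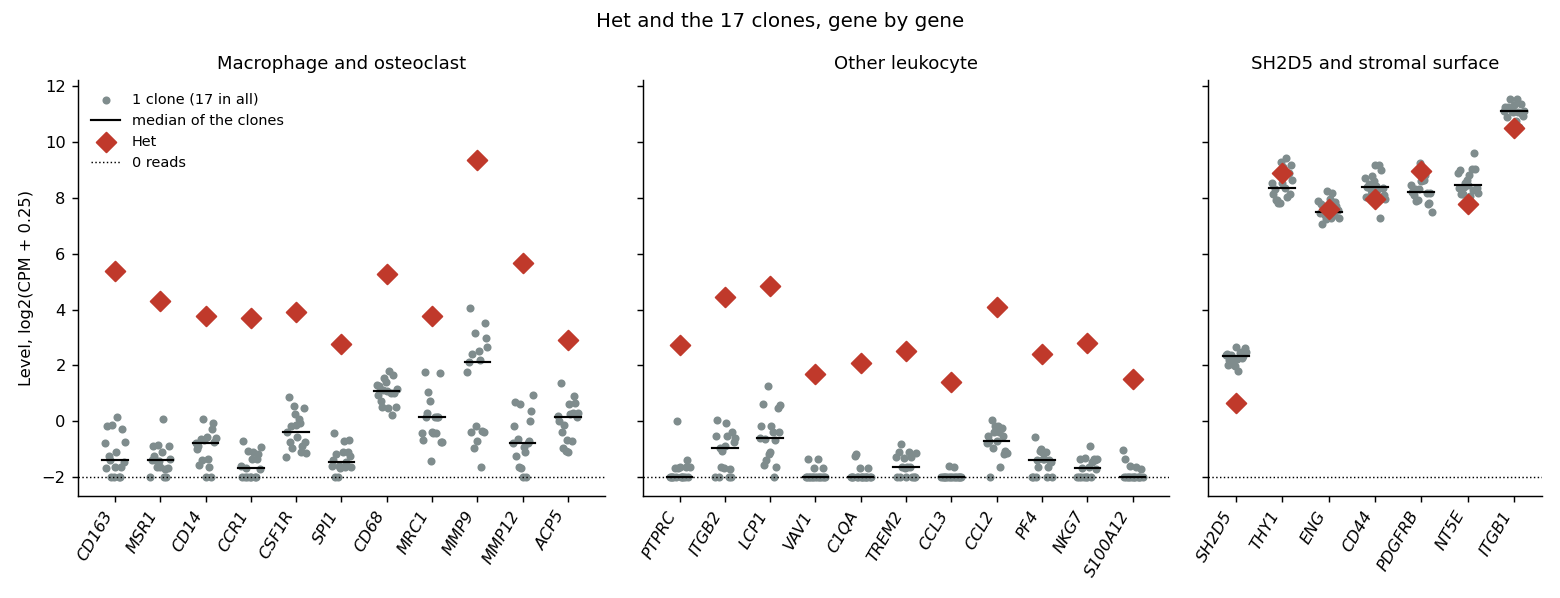
Levels as log2(CPM + 0.25) of macrophage and osteoclast genes (left), other leukocyte genes (middle), and SH2D5 with stromal surface genes (right), with 1 grey point per clone, a black line at the median of the 17 clones, a red diamond for Het and a dotted line at 0 reads. In the left and middle panels Het lies above all clones (CD163 at 667 reads against at most 12), while THY1, ENG, CD44 and PDGFRB in the right panel lie among the clones and SH2D5, NT5E and ITGB1 below them.

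Genes that all leukocytes share moved with the macrophage genes. Of 34 pan-leukocyte signalling genes with a read, 28 were above every clone in Het and 0 below, beside 7.04% and 9.07% of all genes with a read. Of 30 tested, 21 were called higher, and 11 of the 30 had passed the filter through Het alone. PTPRC, which encodes CD45, had 102 reads in Het against 0 to 10 in the clones, with 0 in 10 of them (log2 6.46 ± 0.89, adjusted p = 0.000136 by edgeR and 0.213 by DESeq2). ITGB2, the common chain of the leukocyte integrins, had 350 reads against 0 to 11 (median 4), a log2 difference of 6.37 ± 0.73 (edgeR adjusted p = 2.17e-05). LCP1, the leukocyte actin-bundling plastin, had 455 reads against 0 to 29 (log2 5.66, adjusted p = 5.56e-05, edgeR). The whole list summed to 246 CPM in Het against 26.7 CPM (clone M) to 72.7 CPM (clone A), so that the clones also had counts in it.

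Genes that signal behind immune receptors were low in the clones. VAV1 and BTK had 48 and 29 reads in Het against at most 2 and 1 in a clone, with 0 reads in 13 and 14 of the clones. The adapter genes TYROBP and FCER1G, which pair with activating receptors, had 68 reads against 0 to 4 and 144 reads against 7 to 20 (log2 5.58 and 3.42, adjusted p = 4.18e-05 and 7.61e-06 by edgeR). NCF1, a subunit of the phagocyte oxidase, had 48 reads in Het against at most 3, and IRF8, a myeloid transcription factor, had 31 against at most 1. VAV1, BTK, TYROBP, NCF1 and IRF8 passed the filter only through Het, and VAV1, BTK and IRF8 kept no call by DESeq2, where their adjusted p ran from 0.196 to 0.435. FCER1G was the member that every clone also expressed, and Het was 6.26-fold above the highest clone in it.

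Complement and clearance genes differed in part. C1QA, a chain of the complement recognition protein C1q that macrophages secrete, had 64 reads against 0 to 3 in the clones, 7 reads over the 17 clones together, which made its CPM ratio 142 (95% exact counting interval 64.9 to 366, counting error only), and it was called by edgeR but not by DESeq2 (adjusted p = 0.185). TREM2, a lipid-sensing receptor of tissue macrophages, had 89 reads against 0 to 5 (log2 5.74, adjusted p = 6.10e-05, edgeR), and the clearance receptor STAB1 had 723 against 33 to 143 (log2 3.24 ± 0.41, adjusted p = 5.13e-05, edgeR). CD36, a fatty acid and debris receptor, had 122 reads against 0 to 32 (log2 3.85, adjusted p = 0.0229 by edgeR, 0.187 by DESeq2 and 0.0549 among genes expressed in a clone). MERTK, which binds dying cells, had 63 reads in Het, inside the 4 to 81 of the clones. SLC11A1, a metal transporter of the phagosome, had 158 reads against 0 to 7 (log2 5.58, edgeR adjusted p = 7.71e-06). C1QA, TREM2 and SLC11A1 passed the filter only through Het. In all, 14 phagocytosis receptor genes had a read, of which 5 were above every clone and 3 were called. Of all genes with a read, 7.04% lay above every clone.

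No gene of antigen presentation by MHC class II was called. The 8 genes of this list with a read summed to 218 CPM in Het against 52.6 CPM (clone L) to 191 CPM (clone D), the highest of the 18 libraries. Most of this sum came from CTSS and IFI30, at 1380 and 1925 of the list's 3513 reads in Het. By CPM both were within the range of the clones, with clone N higher in CTSS and clone D in IFI30. CD74, the invariant chain, had 18 reads in Het against 0 to 5 and was not called (adjusted p = 0.100 by edgeR, 0.00268 by limma-voom). BOLA-DRA was at 0 reads in every library, which cannot be read as its absence. BOLA-DMB had 141 reads against 3 to 95 and was not called. Of the 8 genes, 2 were above every clone and 0 below, beside 7.04% and 9.07% of all genes with a read.

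Proteases that macrophages and osteoclasts secrete were among the called genes. MMP9, or gelatinase B, had 10509 reads in Het against 1 to 229 (median 60) in the clones, 40.3-fold above the highest, clone C (log2 7.30 ± 0.86, edgeR adjusted p = 2.69e-05). MMP12, the macrophage elastase, had 819 reads against 0 to 24 (log2 6.67, adjusted p = 1.22e-05, edgeR). ACP5, the tartrate-resistant acid phosphatase of osteoclasts, had 116 against 3 to 33 (log2 3.15, adjusted p = 0.00978, edgeR). Cathepsin K (CTSK), the main collagenase of osteoclasts, had 45656 reads against 10829 to 44100, and its level by CPM was within the range of the clones, where clones D and N were higher. CALCR, the calcitonin receptor, was at 0 reads in Het, and ATP6V0D2, an osteoclast proton pump subunit, had 7 reads against at most 1. Of 16 osteoclast genes with a read, 6 were above every clone in Het and 2, MMP9 and ACP5, were called. Among all genes with a read, 7.04% were above every clone.

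A few chemokine genes were called higher, while most of the list was not. CCL3 had 39 reads in Het and 2 over the 17 clones, a CPM ratio of 302 with an exact counting interval of 78.2 to 2580 (log2 7.28, adjusted p = 1.74e-06 by edgeR and 0.491 by DESeq2). CCL2, which draws monocytes, had 273 reads against 0 to 12 (log2 5.49 ± 0.52, adjusted p = 5.49e-06, edgeR), and the neutrophil chemokine IL8 had 44 against 0 to 3 (log2 5.92, adjusted p = 4.65e-05, edgeR). GRO1, a related neutrophil chemokine, had 85 against 0 to 13. All 4 were called, 3 of them members of the list, in which 16 genes were tested, and CCL3 and IL8 passed the filter only through Het. Of the 33 chemokine and cytokine genes with a read, 11 were above every clone in Het and 1 below. Of all genes with a read, 7.04% lay above and 9.07% below. The whole list nonetheless summed to less in Het (251 CPM) than in the median clone (509 CPM).

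Of 30 interferon-stimulated genes tested, 6 were called higher in Het. MX1, an antiviral GTPase, had 259 reads in Het against 0 to 22 (median 7), a log2 difference of 4.85 ± 0.61 (edgeR adjusted p = 5.24e-05). ISG15, a ubiquitin-like protein, had 94 against 0 to 13, and the RNA sensor IFIH1 had 67 against 2 to 20 (log2 3.79 and 3.17, adjusted p = 0.00305 and 0.000637, edgeR). MX2, XAF1 and IFI27 were also called, at 58, 25 and 14 reads, all 3 having passed the filter only through Het. In all, 16 of the 37 list genes with a read were above every clone and 0 below, beside 7.04% and 9.07% of all genes with a read. The summed level was 664 CPM in Het against 297 to 578 CPM, above clone Q, the highest. XAF1 and IFI27 were not called by DESeq2 (adjusted p = 0.0601 and 0.278). The part that the macrophage RNA of Het has in these levels was not tested. PSMB8 and PSMB9, the immunoproteasome subunits, were above every clone at 396 reads against 32 to 246 and 82 against 2 to 48, and were not called (log2 1.91 each, edgeR adjusted p = 0.252 and 0.557).

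Markers of the other blood lineages were sparse in Het. Of 19 T and NK cell genes with a read, 2 were above every clone, NKG7 at 109 reads against 0 to 4 (log2 6.41, adjusted p = 9.07e-06, edgeR) and IL7R at 33 against 0 to 4, and both were called, IL7R not by DESeq2 (adjusted p = 0.254). The share above every clone was 7.04% over all genes with a read. The defining T cell genes CD3D, CD3E and CD3G had 2, 4 and 13 reads in Het, within the range of the clones, and GZMA, GZMB and KLRB1 were at 0 reads in every library. For B cells FCRL1 was called at 13 reads (not by DESeq2, adjusted p = 0.752), while MS4A1, CD79A and CD79B had 0 reads in Het. For neutrophils S100A12 was called at 42 reads against 0 to 3 (adjusted p = 0.000102 by edgeR, 0.231 by DESeq2), S100A8 and S100A9 had 2 and 3 reads, and MPO and ELANE had 0 in Het. The T and NK list summed to 17.3 CPM in Het against 7.31 to 25.9 CPM, and the B and plasma cell list to 2.73 CPM against 0.406 to 2.76 CPM. Both sums were within the range of the clones, but through 1 clone each, D and N. The next clones were at 13.5 CPM (N) and 1.57 CPM (L). The 4 called genes NKG7, IL7R, FCRL1 and S100A12 passed the filter only through Het.

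Platelet, red cell and vessel markers gave a mixed picture. The platelet chemokines PF4 and PPBP, which myeloid cells also make, had 82 reads against 0 to 6 and 27 against 0 to 1 in Het and were called (log2 5.36 and 6.76, adjusted p = 6.41e-05 and 5.49e-06, edgeR, PPBP with 0.600 by DESeq2), both past the filter only through Het, whereas GP6 was at 0 reads in every library. The globin genes HBA and HBB were at 0 reads in all 18 libraries. GYPC, a membrane protein of red and other cells, had 693 reads against 53 to 536 and was not called. Of 22 endothelial genes with a read, VWF was above every clone among the tested genes, at 170 reads against 9 to 93 (log2 1.94 ± 0.48, edgeR adjusted p = 0.0569, and 0.0120 to 0.0406 without clone D, N or P). CDH5, CLDN5, ESAM and ROBO4 were at 0 reads in every library and PECAM1 had 4 reads in Het against 3 to 41. The endothelial list as a whole summed to 232 CPM in Het, below the 239 CPM of the median clone.

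Of the 144 genes called higher, 43 belonged to the immune and osteoclast lists and 69 to any of the 66 lists. The other 75 were in none of them. The genes from LY9 to DEFB5 named next were in no list, and all had passed the filter only through Het. LY9 and SLAMF7, of the SLAM receptor family, had 49 and 51 reads in Het against at most 2 in a clone. The inflammasome sensor NLRP1 had 32 against at most 1, the receptor for platelet-activating factor PTAFR had 27 against at most 2, and the Fc receptor FCGR2 had 19 against at most 1. BATF, a lymphoid and myeloid transcription factor, had 16 reads in Het and 1 over all clones, in clone O. Without that clone the other clones had 0 reads and the log2 difference was 6.97, its largest over all settings. The edgeR fit nonetheless no longer called it there (adjusted p = 0.343). NFAM1, RGS1, CD1C, the heparanase gene HPSE and the defensin DEFB5 had 25, 33, 17, 73 and 39 reads in Het against at most 2, 2, 1, 4 and 2. By DESeq2 the adjusted p of NLRP1, PTAFR, FCGR2, NFAM1, RGS1, CD1C and BATF ran from 0.283 to 0.797. EDNRB, an endothelin receptor with no list here, had 223 reads in Het against 2 to 24 (log2 4.48 ± 0.57, edgeR adjusted p = 5.74e-05), and FOLR2, a folate receptor of tissue macrophages, had 162 against 8 to 37 (log2 3.07, adjusted p = 0.000248, edgeR). EDNRB and FOLR2 were chosen after their values were seen.

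In 9 of the 144 the median clone had at least 100 reads, so that Het added to a level which the clones already had. These were GPNMB, FAT4, RNF213, TRANK1, GDPD5, PLCL2, CLCN6, RALGAPA2 and TRIB1, of which all but GPNMB were named for that reason after their values were seen. GPNMB, a lysosomal glycoprotein of macrophages and osteoclasts, had 5576 reads against 209 to 2114 (median 829) in the clones (log2 2.61 ± 0.62, edgeR adjusted p = 0.0418), and the adjusted p rose to 0.0511 to 0.0628 without clone A, B, C, E, F, J or M, to 0.101 by DESeq2, to 0.267 by limma-voom and to 0.0620 with library totals. The large cadherin FAT4 had 6585 reads against 1532 to 4388 (log2 1.26 ± 0.30, edgeR adjusted p = 0.0418, and 0.0507 to 0.0619 without clone A, B, E, F, G, H or J). GDPD5, a phosphodiesterase, had 507 reads against 53 to 266 (log2 1.83, edgeR adjusted p = 0.0418, and 0.0518 to 0.0620 without clone A, B, D, H, K, M, O or Q). RALGAPA2, a regulator of Ral GTPases, and TRANK1 were steadier, at 320 reads against 66 to 183 and 1138 against 305 to 746 (log2 1.39 and 1.18, adjusted p = 0.00680 and 0.00924, edgeR). RNF213, PLCL2, CLCN6 and TRIB1 differed by log2 1.33, 1.08, 0.79 and 1.22. Scaling by library totals took the adjusted p of FAT4, GDPD5, PLCL2, CLCN6 and TRIB1 to 0.136, 0.126, 0.145, 0.334 and 0.0691, and limma-voom took that of FAT4 and RNF213 to 0.110 and 0.0694. The fit on genes expressed in a clone ended the calls of GPNMB, FAT4, GDPD5, CLCN6 and RNF213 (adjusted p = 0.0833, 0.0830, 0.0868, 0.0631 and 0.0580). In all 9 Het was above the highest clone by 1.28-fold (FAT4) to 2.26-fold (GPNMB).

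Beyond the called genes, the range of the clones placed more genes low than high in Het. Of 11878 tested genes, 786 (6.62%) were above every clone and 1299 (10.9%) below every clone on the scale of library totals. The direction of this excess belongs to the scale, since TMM-scaled levels gave 1129 above and 1035 below, and DESeq2's size factors gave 1120 and 1042. Most gaps were small. With a gap of at least 1.5-fold to the nearest clone, 223 genes remained above and 123 below, and the median ratio of Het to the lowest clone over the genes below was 0.914. Several clones were extreme as often. Clone N was the highest of the 18 libraries in 19.8% of the genes and clone L in 17.1%, and clone A was the lowest in 13% and clone F in 11.3%, against 10.9% for Het.

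**Figure D3:**
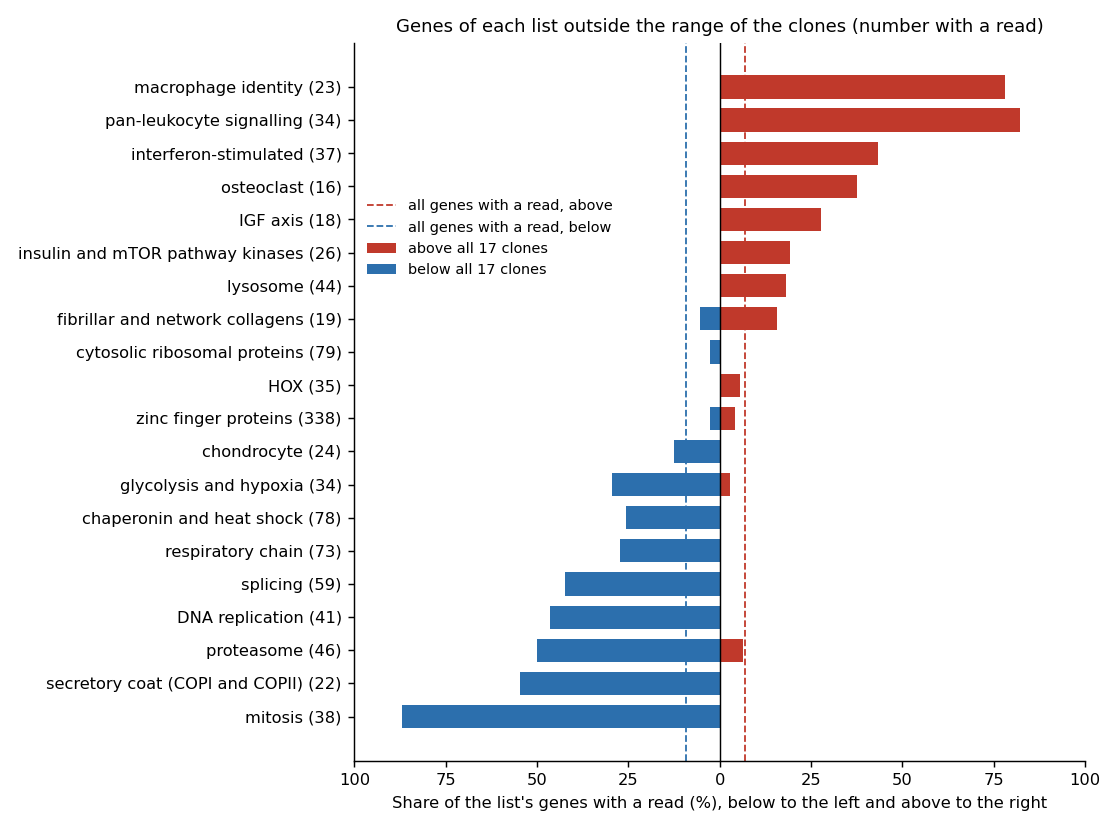
Share of each list's genes with a read that lay above all 17 clones (red, to the right) or below all of them (blue, to the left) in Het, on the scale of library totals, with the number of genes with a read in parentheses and dashed lines for all genes with a read (7.04% above, 9.07% below). Macrophage identity (18 of 23) and pan-leukocyte genes (28 of 34) stand out on the high side and mitosis genes (33 of 38) on the low side.

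Matrix genes lay on both sides of the range. Of 39 matrix glycoprotein and proteoglycan genes tested, 2 (5.13%) were above every clone, FBLN1 and NID1, and 2 were below, TNC and POSTN, where 6.62% and 10.9% of all tested genes lay. Of 19 collagen genes, 3 (15.8%) were above and 1 was below, COL8A1 at 2197 reads against 1627 to 9523, the order being that of CPM. FBLN1, which encodes the basement membrane protein fibulin, had 2281 reads against 5 to 938 (median 137), a log2 difference of 3.43 ± 1.18 (edgeR adjusted p = 0.388, and 0.0499 without clone D). NID1, or nidogen, had 20319 reads against 716 to 11683 (log2 1.79). COL5A3 and COL16A1 had 602 reads against 7 to 271 and 4050 against 1083 to 3416. COL1A1, the main chain of type I collagen, had 1729815 reads in Het against 209967 to 1459062 (median 834404), above all clones by 1.16-fold at the nearest. No gene of either list was called.

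Single receptor and signalling genes were above every clone without a call. LRP1 had 156728 reads in Het against 54707 to 115584 (median 83130), a log2 difference of 0.85 ± 0.28 (edgeR adjusted p = 0.328). In the IGF axis 5 of 18 genes with a read were above every clone and 0 below, beside 7.04% and 9.07% of all genes with a read, and the list's sum of 3908 CPM was within the range of the clones, under clones D (5076 CPM) and K (5266 CPM). INSR, the insulin receptor, had 535 reads against 230 to 427, IRS2, its substrate, had 807 against 161 to 526, and IGF2R, which clears IGF2, had 11758 against 3387 to 7851. Their log2 differences were 0.76, 1.29 and 0.98, and none was called (edgeR adjusted p = 0.202, 0.222 and 0.474). Counts in the other signalling lists were near those of all tested genes, with 3 of 36 Wnt genes above (8.33%) and 1 below, 1 of 16 Notch genes above (6.25%) and 0 below, and 3 of 30 immediate early genes above and 2 below. The Wnt co-receptor LRP5 had 678 reads against 58 to 365, and NOTCH2 had 47000 against 19481 to 38337. FOS and FOSB, immediate early transcription factors, had 7746 reads against 275 to 3979 and 2324 against 13 to 800, also not called (edgeR adjusted p = 0.588 and 0.494). CDKN1C, a cyclin-dependent kinase inhibitor, had 570 reads against 3 to 218 (median 18), the gap being 1.87-fold to clone D (log2 3.41 ± 1.18, adjusted p = 0.388 by edgeR and 0.000879 by limma-voom).

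Of 44 lysosome genes with a read, 8 were above every clone in Het and 0 below, beside 7.04% and 9.07% of all genes with a read, and 1, GPNMB, was called. The list summed to 15720 CPM in Het, within the range of the clones and under clones N (16030 CPM) and D (16560 CPM). The protease genes CTSC and CTSD had 1953 reads against 501 to 1837 and 23228 against 5708 to 23505, and GRN and PSAP, which encode progranulin and prosaposin, had 9266 against 2461 to 7380 and 29152 against 14235 to 25972. Their log2 differences were 0.77, 0.82, 0.90 and 0.54, and none of the 4, chosen after values were seen, was called. PIK3CD and PIK3CG, the leukocyte forms of phosphoinositide 3-kinase, were the 2 called genes of 26 insulin and mTOR pathway kinases, at 75 reads against 2 to 21 and 12 against 0 to 2 (log2 3.34 and 4.29, adjusted p = 0.00197 and 0.0163, edgeR), PIK3CG having passed the filter only through Het and not being called by DESeq2 (adjusted p = 0.525). The part that macrophage RNA has in these levels was not tested.

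Genes of cell division stood out on the low side. Of 38 mitosis genes, 33 were below every clone in Het and 0 above, and of 41 DNA replication genes 19 were below and 0 above, where 10.9% of all tested genes lay below. None of these 79 list entries was called by edgeR or DESeq2, and 15 mitosis genes and 1 replication gene had an unadjusted p under 0.05. The median log2 difference was -3.16 over the mitosis genes and -1.20 over the replication genes, against -0.04 over all genes tested. edgeR takes these differences from the mean of the clones, which a few high clones raise. The mitosis list summed to 1831 CPM in the mean of the clones and 909 CPM in the median clone. Clone M was the lowest clone in 30 of the 33 mitosis genes. The count of mitosis genes below all clones was 34 with TMM-scaled levels, 34 with DESeq2's size factors, 33 at equal depth and 37 without clone M.

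Summed over the list, mitosis genes came to 268 CPM in Het. Clone M followed at 353 CPM and clone B at 656 CPM, the median clone was A at 909 CPM, and clones G, C, O and L stood apart at 4033 to 4983 CPM. The replication genes summed to 709 CPM in Het, close to clone M at 737 CPM and clone E at 803 CPM, with clone O highest at 3787 CPM. Het was thus the lowest of the 18 libraries in both sums, with clone M next and the other clones spread over a wide range above.

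**Figure D4:**
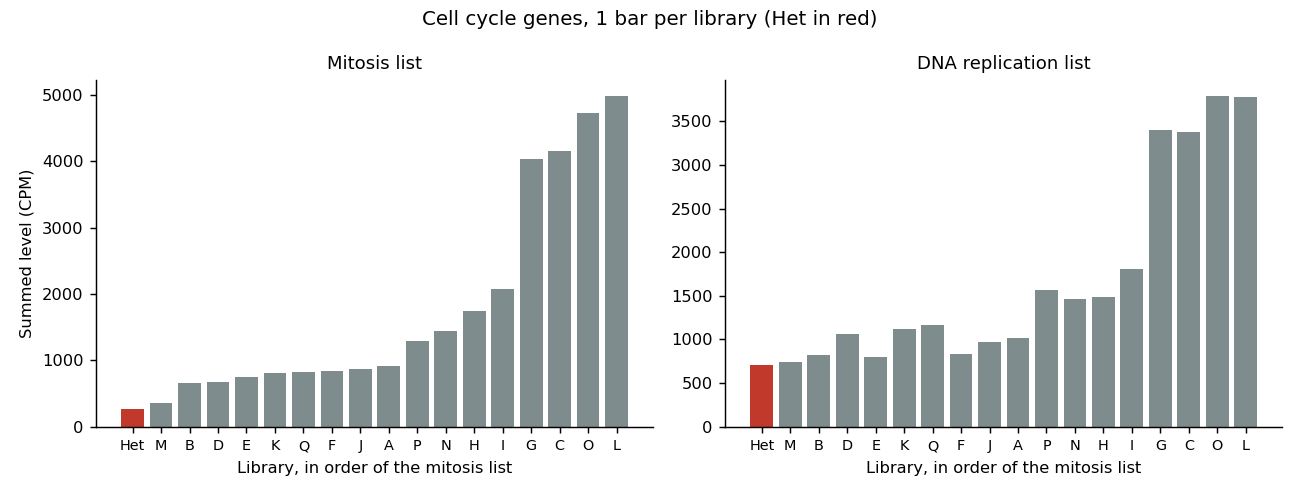
Summed level in CPM of the mitosis list (left) and the DNA replication list (right), with 1 bar per library in the order of the mitosis list and Het in red. Het is the lowest bar in both panels (268 and 709 CPM), clone M is next (353 and 737 CPM), and clones G, C, O and L are the highest.

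Single genes of the cell cycle, some of them outside these lists, were low by several steps. RRM2, the ribonucleotide reductase subunit made in S phase, had 59 reads in Het against 198 to 8101 (median 711) in the clones (log2 -5.07 ± 2.29, adjusted p = 0.617, edgeR). MKI67, the proliferation antigen, had 284 reads against 358 to 9834 (median 1308), and its level was only 0.910 of that in clone M. TOP2A, which untangles DNA, had 128 reads against 204 to 5105, and CCNA2, cyclin A2, had 16 against 26 to 806. CDC20 and UBE2C, which drive exit from mitosis, had 60 reads against 123 to 3298 and 41 against 81 to 2863. The kinesins KIF15 and KIF20A had 7 reads against 30 to 569 and 73 against 137 to 2909, and the centromere protein HJURP and the spindle protein DLGAP5 had 33 against 88 to 2350 and 14 against 36 to 799. The transcription factor E2F8, the chromatin protein UHRF1 and the helicase subunit MCM5 had 12, 83 and 104 reads in Het against at least 32, 225 and 170 in a clone. PCNA, the sliding clamp, was inside the range at 273 reads against 245 to 1916. None was called, the standard errors of the log2 differences being large, such as 1.87 for MKI67 and 1.67 for TOP2A.

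SH2D5, an adapter gene, was the only gene that edgeR called lower. It had 21 reads in Het against 45 to 102 (median 63) in the clones, so that the groups did not overlap and Het had 0.400 of the level of the lowest clone, K (log2 -1.76 ± 0.37, edgeR quasi-likelihood adjusted p = 0.0134, and 0.0593 by limma-voom). DESeq2 called it together with 10 other lower genes. Of these, PRSS12, a secreted serine protease, had 52 reads in Het against 53 to 1882 (median 829), 0.700 of the level in clone D (log2 -3.95 ± 1.32, adjusted p = 0.332 by edgeR and 0.00386 by DESeq2).

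Of 24 chondrocyte genes with a read, 3 were below every clone and 0 above, a share near the 9.07% of all genes with a read, and 0 were called. Their sum of 3584 CPM in Het was close to the median clone at 3684 CPM. The members taken singly were mostly lower than the mean of the clones, with a median log2 difference of -1.84 by edgeR over the 19 tested genes. A few high clones raise that mean, such as C and O with 15794 and 20245 reads of COL2A1. The list's sum was 4316 CPM in the mean of the clones. COL2A1, the cartilage collagen, had 264 reads in Het against 271 to 20245 (median 787), and aggrecan (ACAN) had 853 against 311 to 41761, within the range as the 5th lowest library. Of 40 genes of TGF-beta and BMP signalling tested, 1 (2.50%) was below every clone, ID1 at 20 reads against 25 to 959, and the median log2 difference was -0.04, as over all genes. The urokinase receptor PLAUR had 368 reads against 393 to 17256. The matrix gene POSTN had 291 reads against 245 to 3200, which by CPM was 0.848 of the lowest clone, D. None of these was called by edgeR, the adjusted p being 0.539 for POSTN and 0.743 for PLAUR.

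Glycolysis and the machinery of protein and RNA handling gave the other low groups. Of 34 glycolysis and hypoxia genes tested, 10 (29.4%) were below every clone and 1 (2.94%) above on library totals. Of all tested genes, 10.9% lay below and 6.62% above. Clone K was the lowest clone in 9 of the 10. LDHA, lactate dehydrogenase, had 571 reads against 595 to 3218, and PGAM1, phosphoglycerate mutase, had 2772 against 3215 to 13504, with Het at 0.822 and 0.738 of clone K. The 1 gene above was EPAS1, which encodes HIF-2α, with 9387 reads against 843 to 5771. The splicing factors SRSF3 and SRSF7 had 0.633 and 0.751 of the level in clone D, and 25 of 58 tested splicing genes were below every clone, 19 with TMM scaling.

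Other low groups rested on small gaps and on the scale. Of 44 proteasome genes tested, 23 were below every clone on library totals, where 10.9% of all tested genes lay below. The count of 23 fell to 12 with TMM-scaled levels or DESeq2's size factors. PSMD14 and PSMA4 had 0.750 and 0.803 of the level of their lowest clone, while PSMA7 had 0.998. Of 22 COPI and COPII coat genes, which carry proteins between endoplasmic reticulum and Golgi, 12 were below on library totals and 4 with TMM. For the respiratory chain the counts were 20 of 69 and 7, and for chaperonin and heat shock genes 20 of 74 and 13. Of 79 cytosolic ribosomal protein genes with a read, 2 were below every clone and 0 above. Of 35 HOX genes with a read, which keep positional identity, 2 were above and 0 below. Over all genes with a read the shares were 9.07% below and 7.04% above, so that the HOX count was near the share above. Of the 26 HOX genes tested, 0 lay outside the range.

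Het lay closest to clones K, J, D and B. Over 11598 genes with a CPM above 1 in some library, the Euclidean distance in log2(CPM + 0.25) was 73.7 to clone K, 75.8 to J, 76.2 to D, 77.5 to B and 82.6 to M. The farthest were clones C, G, N, O and L at 115.0 to 125.5, of which C, G, O and L had the highest mitosis sums. Over these genes each clone had a nearer neighbour than Het did, since the distance of a clone to its nearest clone was 26.0 to 65.2. The mean distance of Het to the clones, 96.1, was second to that of clone N, 99.1, and above the other 16, from 70.7 for clone J. Without the called genes and the immune and osteoclast lists the distance to clone K was 63.2 and to clone D 63.2, and 5 libraries including Het reached its mean distance of 86.7 or more. In that setting clones N and L had nearest clones farther off than Het did, at 63.65 and 63.84 against 63.21.

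Which clone came nearest depended on the measure. Clone D came nearest by Spearman correlation across genes (0.974, with clone K next at 0.972, genes not being independent replicates), with genes scaled to equal spread and with a pseudocount of 1. In all these orders clones K, J, D and B took the nearest 4 places. Leaving out the cell cycle lists as well, a setting added after seeing the data, gave clone K at 61.6 and clone D at 62.0. The average of the 17 clones was no closer to Het than these. Its distance was 83.9 and its Spearman correlation 0.961, so that Het was less like a pool of these clones in equal parts than like clone K or D alone.

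**Figure D5:**
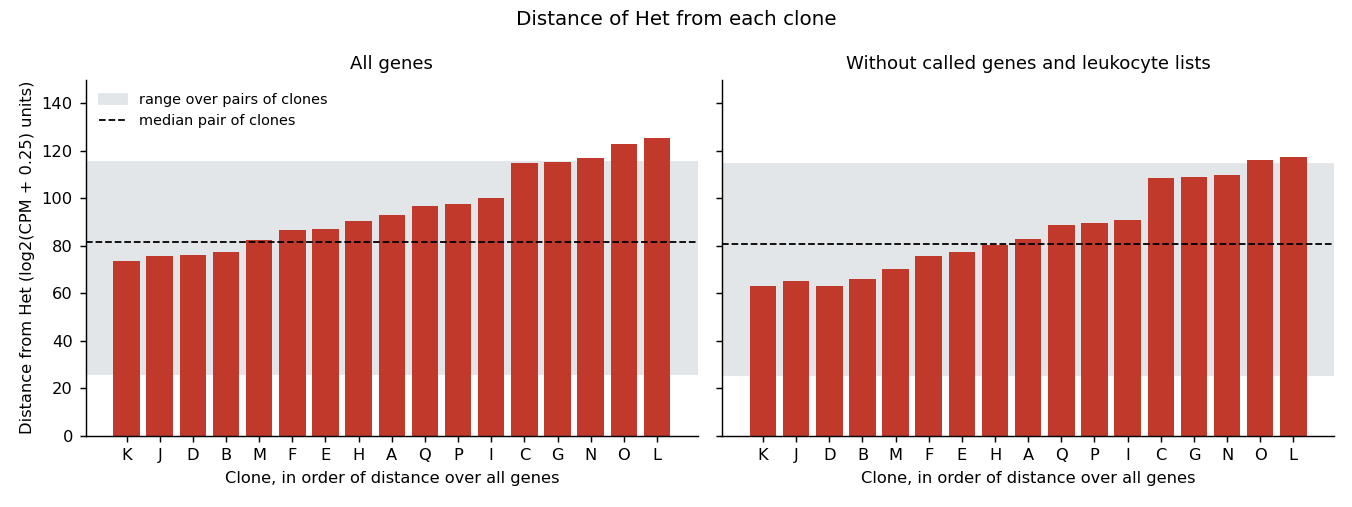
Euclidean distance of Het from each clone in log2(CPM + 0.25), over all genes (left) and without the called genes and the immune and osteoclast lists (right), with clones in the order of the left panel, the range over pairs of clones shaded and the median pair dashed. Clones K, J, D and B are nearest (73.7 to 77.5 over all genes), and in the left panel clones G, N, O and L lie farther from Het than any pair of clones from each other.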

How the data were processed

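Libraries were made by the authors from polyadenylated RNA with the NEBNext kits and sequenced as single-end reads. Per the labels and the study's methods, reads were aligned with STAR (2.3.0e) to bosTau7 and counted per gene with HTSeq on RefSeq annotation release 103. The deposited values are raw read counts per gene symbol, 16989 symbols in 18 libraries, of which 2548 had 0 reads throughout. The 5 tally lines were left out (reads on no feature were 19.7% in Het, 18.8% to 26.8% in the clones). The deposited table of all samples held the same values, and 0 of its sample columns were left unused. Whether counting used strand is not given in the sources used here, and reads of near-identical genes can be lost or split. Gene lengths were not used, so levels are compared within a gene.

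Groups came from the clonality label. Counts were fitted with edgeR 4.0.16 (TMM, filterByExpr, quasi-likelihood test, Benjamini-Hochberg adjustment over 11878 genes, threshold 0.05) in R 4.3.3, checked on simulated counts, with DESeq2 1.42.0 and limma 3.58.1 as alternatives. CPM was computed on the reads on genes. Range counts have no test. P-values measure the spread between libraries of 1 donor. Library pairs with identical counts numbered 0.

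The members and lists were chosen with earlier results of these data known. The 66 gene lists are hand-written. Named genes were the 6 markers CD163, MSR1, MMP9, CD68, CCR1 and SH2D5, the 15 largest higher calls, every lower call, the 10 most negative genes below all clones with a mean of at least 10 CPM, the 15 largest higher calls outside the macrophage, leukocyte, osteoclast and chemokine lists, and from each list its calls or else up to 4 genes outside the range. Genes named as within the range, at 0 reads or not called, beyond these, were added after values were seen.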

Additional observations from a re-analysis of the deposited data

How the results depend on the processing

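No paired analysis was possible because the labels number no replicates and Het is a lone library. Calls numbered 89 with DESeq2 and 45 among genes expressed in a clone (added after seeing the data), and 136 to 216 with library totals, DESeq2 size factors, robust fitting, limma-voom or no filter. With each clone left out in turn they numbered 137 to 155, genes above all clones 789 to 897 and genes below 1303 to 1482. Members above all clones in these 17 fits numbered 15 to 16 (macrophage identity), 25 to 26 (pan-leukocyte) and 13 to 15 (interferon-stimulated), and members below numbered 33 to 37 (mitosis), 19 to 26 (DNA replication), 23 to 26 (proteasome), 25 to 28 (splicing), 12 to 13 (coat), 20 to 23 (respiratory chain) and 20 to 23 (chaperonin). A gap of at least 1.5-fold left 223 genes above and 123 below. TMM-scaled levels gave 12 proteasome, 4 coat, 7 respiratory chain and 13 chaperonin genes below, and DESeq2 size factors 12, 4, 6 and 13. The cause was not tested. Clone K, nearest to Het, ranked 2 by Spearman correlation, 3 with scaled genes and 2 with a pseudocount of 1. ENG turned from a log2 difference of 0.05 to -0.04 with library totals. Of 132 list medians compared, 1 moved by over 1 SD of the clones. The counting of promoter motifs was not run, for want of sequences. Named genes whose call was lost with DESeq2 had from 12 reads (PIK3CG) to 5576 reads (GPNMB) in Het.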

Other observations

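Some called genes belonged to no immune list. SEMA4A, a semaphorin of immune and other cells, had 148 reads in Het against 4 to 23 in the clones (log2 3.60 ± 0.42, adjusted p = 2.19e-05, edgeR's quasi-likelihood test). The secreted or membrane proteins RARRES1 and PLXDC1 had 97 reads against 0 to 12 and 89 against 0 to 13 (log2 4.51 and 4.47, edgeR adjusted p = 0.000726 and 0.0108), PLXDC1 not being called by DESeq2 (adjusted p = 0.222). The genes RARRES1 and PLXDC1 were chosen after their values were seen. MBP, the myelin basic protein, was the 1 called gene of 12 Schwann cell and neural genes with a read, at 31 reads against 0 to 5 (adjusted p = 0.00268 by edgeR, 0.286 by DESeq2), and ABCC9, a potassium channel subunit of pericytes, had 23 against 0 to 4 (adjusted p = 0.0217 by edgeR, 0.153 by DESeq2), both past the filter only through Het. The Schwann cell and neural list went the other way as a whole. It summed to 285 CPM in Het, the lowest of the 18 libraries, against 336 CPM (clone Q) to 1011 CPM. Over its 10 tested genes the median log2 difference was -1.22.

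Further groups were low by range without a call. Of 72 mitochondrial ribosomal protein genes with a read, 15 were below every clone in Het and 1 above on library totals. For translation initiation the counts were 12 and 2 of 52, for RNA polymerase subunits 9 and 1 of 27, and for histones 6 and 0 of 32, beside 9.07% of all genes with a read below and 7.04% above. The median log2 differences of these lists, in this order, were -0.14, -0.13, -0.09 and -0.64. Their counts with TMM-scaled levels are not given here, so how far they rest on the scale is open.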
